A study of Mus musculus with 42 samples.

Results

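The response to fasting that 4 nuclei of the mouse hypothalamus had in common was measured by RNA sequencing. All 42 of the 42 libraries of the series were used, 22 from fed and 20 from fasted animals, and the fasting change of each gene was estimated over the nuclei together, with the nucleus as a factor. The animals were adult wild-type male mice of the strain C57/BL6 that either ate ad libitum or had no food for 24 hours before the brain was taken. The nuclei were collected by laser capture microdissection, so a library holds the RNA of neurons, glia and vessels of that nucleus, and a change in the number of cells of a type cannot be told apart from a change in RNA per cell. The arcuate nucleus (ARC) gave 5 fed and 5 fasted libraries, the ventromedial hypothalamus (VMH) 6 and 6, the dorsomedial hypothalamus (DMH) 5 and 4, and the paraventricular nucleus (PVN) 6 and 5. The nuclei were taken from the same brains, and the labels do not say which libraries came from a given mouse.

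Fasting lowers glucose, insulin and leptin and raises circulating corticosterone. Corticosterone acts through the glucocorticoid receptor, a transcription factor that most cells of the brain carry, and which turns on a well-known group of genes that includes Fkbp5, Cdkn1a and Zbtb16. The best known hypothalamic responses to fasting are by contrast those of particular neurons, such as the Agrp and Npy neurons of the ARC that drive feeding.

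Levels are given in RPKM, read counts divided by gene length and by library depth, and a change is the difference, fasted minus fed, of log2(RPKM + 1) with its standard error (SE). A gene was called when its Benjamini-Hochberg adjusted p in limma was under 0.1. The depth of the libraries, estimated from the steps between low values, ranged from 1.33 to 13.2 M reads. The 22 fed libraries had 4.03 ± 1.2 M reads (mean and SD) and the 20 fasted ones 5.15 ± 2.54 M reads, a difference of 0.291 on the log2 scale that did not pass the threshold (two-sided permutation test of the state within nuclei, p = 0.106). The libraries fell into 3 sets that shared their lowest values, which the labels do not name, and the change in each set is given for the 13 of 54 genes named by rule whose 3 values spanned more than 0.7 on the log2 scale. Marker genes matched the labels of the nuclei. The summed level of the 6 ARC markers, Pomc and Agrp among them, lay above that of every other library in 10 of 10 ARC libraries. The same held for the markers of the VMH in 12 of 12, of the DMH in 9 of 9 and of the PVN in 11 of 11 libraries.

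Of 33579 genes tested, 176 (0.524%) were called for the common fasting effect, 70 higher (0.208%) and 106 lower (0.316%) in fasted animals. The genes tested include 4741 without reads in any library, which lower these shares and those set beside the lists below. Among the 28838 tested genes that varied, 0.61% were called. The changes were mostly modest, with a median size of 0.36 on the log2 scale. Only 5 genes rose by at least 1 on that scale, namely Cdkn1a, Hif3a, Zbtb16, Mt2 and Plin4, and only Fabp7 fell by as much. These p-values treat the libraries as independent although the nuclei share mice, and the spread they measure may be partly technical. Averaging libraries of the same state and replicate number, as if the number marked a mouse, left 63 calls, of which 47 were among the 176. Libraries with the same number did not always lie in the same library set, so these means may mix mice.

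The fitted change had the same sign in all 4 nuclei for 170 of the 176 genes (96.6%), which is partly a result of how they were called. The share was 12.7% among all genes tested and 14.8% among those that varied. Most of the 176 genes were not called in any nucleus on its own. Tested alone in the same way, the ARC gave 19 called genes (0.0566%), the VMH 44 (0.131%), the DMH 8 (0.0238%) and the PVN 24 (0.0715%), and 147 of the 176 genes were in none of these lists. None of the 176 was called in all 4 nuclei, and 5 were called in 3 of them.

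A nucleus that had no part in the call showed the same direction for most genes. When the ARC was left out, 82 genes were called from the other nuclei, and 72 of these (87.8%) had the same sign in the ARC, against 49% of all genes tested. The corresponding shares were 70 of 76 genes (92.1%) for the VMH, 100 of 113 (88.5%) for the DMH and 60 of 66 (90.9%) for the PVN, against 45.3%, 51.7% and 51.2% of all genes tested. Among tested genes that varied, the share was 51.3% for the ARC, 50.3% for the VMH, 52.3% for the DMH and 52.8% for the PVN. The median change in the nucleus left out was smaller than the one that made the call, in each of the 4 cases and in both directions. For genes called as higher without the VMH, for example, the median change was 0.713 in the other nuclei and 0.344 in the VMH. Since the mice are shared, these shares are not independent replication.

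**Figure D1:**
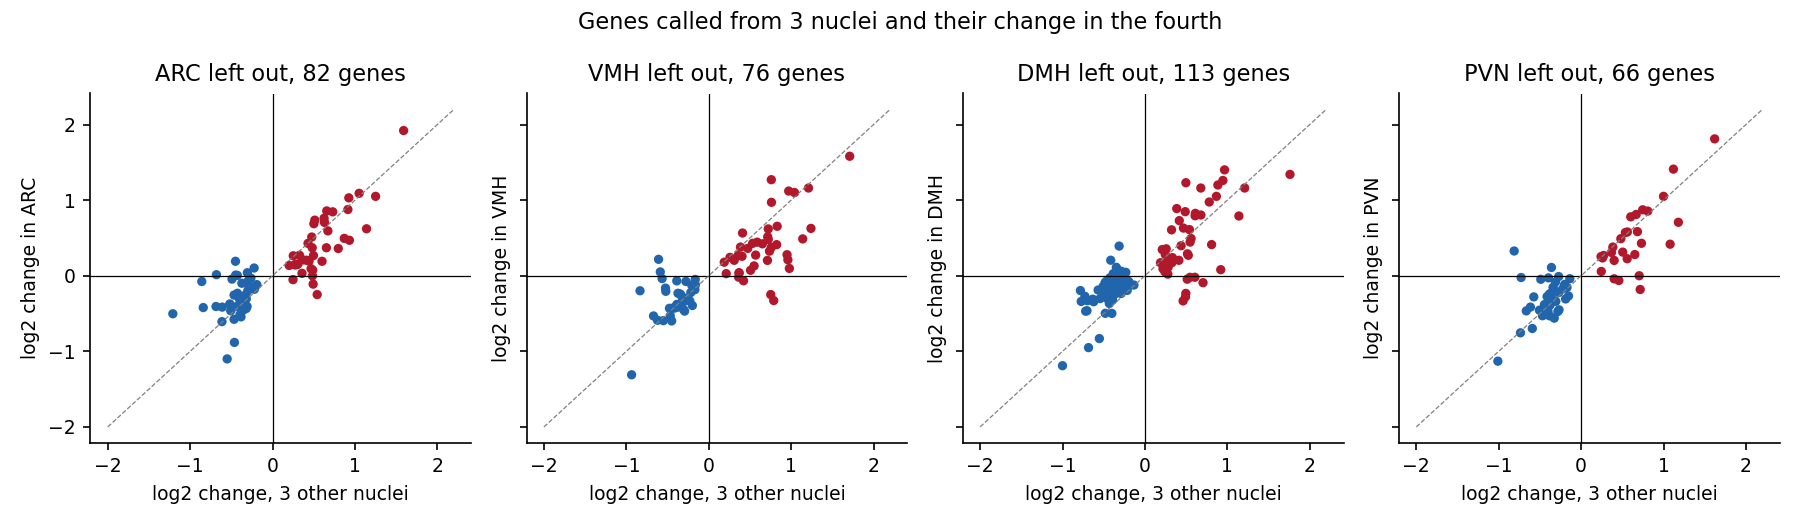
Each panel leaves out a nucleus; the x axis is the log2 change (fasted minus fed, of RPKM + 1) of each gene called from the other 3 nuclei, and the y axis its change in the nucleus left out. Red points rose and blue points fell in the 3 nuclei, and the dashed line marks equal changes. Most points lie in the lower left and upper right quadrants, 72 of 82 for the ARC, 70 of 76 for the VMH, 100 of 113 for the DMH and 60 of 66 for the PVN.

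The largest increase was that of Cdkn1a (ENSMUSG00000023067, chr17:29090976-29100727, plus strand, GRCm38), which encodes the cell cycle inhibitor p21 and is a known glucocorticoid target. In the ARC its level was 1.57, 2.22, 2.9, 6.12 and 7.95 RPKM in fed and 11.6, 12.4, 18.1, 20.9 and 21.9 RPKM in fasted libraries. In the VMH it ranged from 0.474 over a median of 3.23 to 9.94 RPKM in fed and from 7.77 over 9.45 to 25.6 RPKM in fasted libraries. The fed and fasted libraries thus did not overlap in the ARC and overlapped in the VMH. In the DMH the values were 5.98, 7.38, 8.16, 8.71 and 9.81 RPKM fed and 17.5, 21.4, 21.4 and 26.7 RPKM fasted. In the PVN the 6 fed libraries lay between 4.6 and 8.86 RPKM and the 5 fasted ones between 13.7 and 49 RPKM, again without overlap. The common change was 1.67 ± 0.188 (SE; limma, adjusted p = 5.63e-07), and all 20 fasted libraries were above the fed mean of their nucleus.

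Hif3a, a member of the hypoxia-inducible factor family that is also induced by glucocorticoids, lay at 0.441, 0.967 and 2.89 RPKM (lowest, median and highest) in fed and at 2.1, 3.61 and 8.08 RPKM in fasted libraries. It rose by 1.20 ± 0.139 (adjusted p = 1.12e-06), with changes from 1.04 in the ARC to 1.41 in the PVN. Zbtb16, which encodes the zinc finger repressor PLZF, had a fed median of 1.67 RPKM (0.15 to 5.75) and a fasted median of 4.1 RPKM (0.865 to 16.6). Its change was 1.07 ± 0.194 (adjusted p = 0.00304), and the fed and fasted libraries overlapped in 3 of the 4 nuclei. Plin4, a protein that coats lipid droplets, was barely detected in fed animals. Its fed libraries lay at 0.175, 0.333 and 0.962 RPKM, close to the value of about 0.19 RPKM that a gene of its length takes with no reads, and its fasted libraries at 0.363, 2.11 and 4.87 RPKM. The change of 1.01 ± 0.126 (adjusted p = 4.38e-06) therefore understates the fold, since the offset of 1 is larger than the fed level.

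Mt2 encodes a metallothionein, a small protein that binds zinc and copper and whose gene responds to metals and to glucocorticoids. Its fed libraries had 56, 106 and 164 RPKM (lowest, median and highest) and its fasted libraries 111, 251 and 361 RPKM. In the VMH and the DMH no fasted library was as low as any fed library. Mt2 rose by 1.06 ± 0.117 (adjusted p = 5.63e-07). Exons of another gene, Gm45774, overlap 73.5% of the length of Mt2, so its level is uncertain in reads without strand. The neighbouring Mt1 shares no 50-base stretch with another gene, and it rose by 0.65 ± 0.0942 (adjusted p = 9.36e-05). Its change was 1.23 in the DMH and 0.43 to 0.59 in the other nuclei. Of the 4 metallothionein genes tested these were the 2 called, beside 0.208% of all genes called as higher. Mt3, the member typical of brain, had a change of 0.15 ± 0.185 (adjusted p = 0.888). The promoters of Mt1 and Mt2, 250 bases before to 50 after the start (RefSeq, GRCm38.p6), are shown because the pair moved together. Capitals mark the metal response core, TGCACNC or TGCGCNC on either strand, which is present in 25.7% of all 32851 such windows. It was in 30.9% of windows of genes tested and in 31.4% of those of genes called as higher. All 4 windows of the metallothionein list held it, including those of Mt3 and Mt4, which were not called. Mt1 lies at chr8:94178839-94179138 and Mt2 at chr8:94172368-94172667, both on the plus strand.
Mt1: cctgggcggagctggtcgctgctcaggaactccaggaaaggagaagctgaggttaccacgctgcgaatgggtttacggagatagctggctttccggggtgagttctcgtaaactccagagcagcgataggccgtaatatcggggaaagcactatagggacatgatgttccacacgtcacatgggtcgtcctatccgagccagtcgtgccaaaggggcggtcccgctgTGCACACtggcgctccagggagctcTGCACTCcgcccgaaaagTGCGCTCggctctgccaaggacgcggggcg
Mt2: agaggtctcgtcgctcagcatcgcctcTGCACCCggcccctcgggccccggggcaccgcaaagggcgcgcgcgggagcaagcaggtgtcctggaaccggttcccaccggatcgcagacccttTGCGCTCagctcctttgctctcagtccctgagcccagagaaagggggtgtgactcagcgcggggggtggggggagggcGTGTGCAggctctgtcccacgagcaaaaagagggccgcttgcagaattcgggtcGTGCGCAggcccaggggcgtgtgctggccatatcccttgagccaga

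The gene with the smallest p of all was Fam107a (ENSMUSG00000021750, chr14:8296274-8318023, minus strand), an actin-associated protein induced by stress and glucocorticoids. It was at 33.8, 47.2, 55.3, 58.8 and 61 RPKM in fed and 81.1, 82.4, 92.9, 93.4 and 112 RPKM in fasted ARC libraries. Fed and fasted VMH libraries ranged from 51.1 to 62.3 and from 67.3 to 91.3 RPKM, DMH libraries from 29.5 to 42.4 and from 51.2 to 70.9 RPKM, and PVN libraries from 38.7 to 48 and from 68.7 to 89.5 RPKM. No fed library reached any fasted library of its nucleus. The change of Fam107a was 0.71 ± 0.0644 (adjusted p = 1.01e-08). Such separation in all 4 nuclei was seen for 2 of the 33579 genes (0.00596%), Fam107a and Scd2, and separation in 3 nuclei for 4 genes (0.0119%), Bcl6, Cdkn1a, Mfsd2a and Slc13a3.

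**Figure D2:**
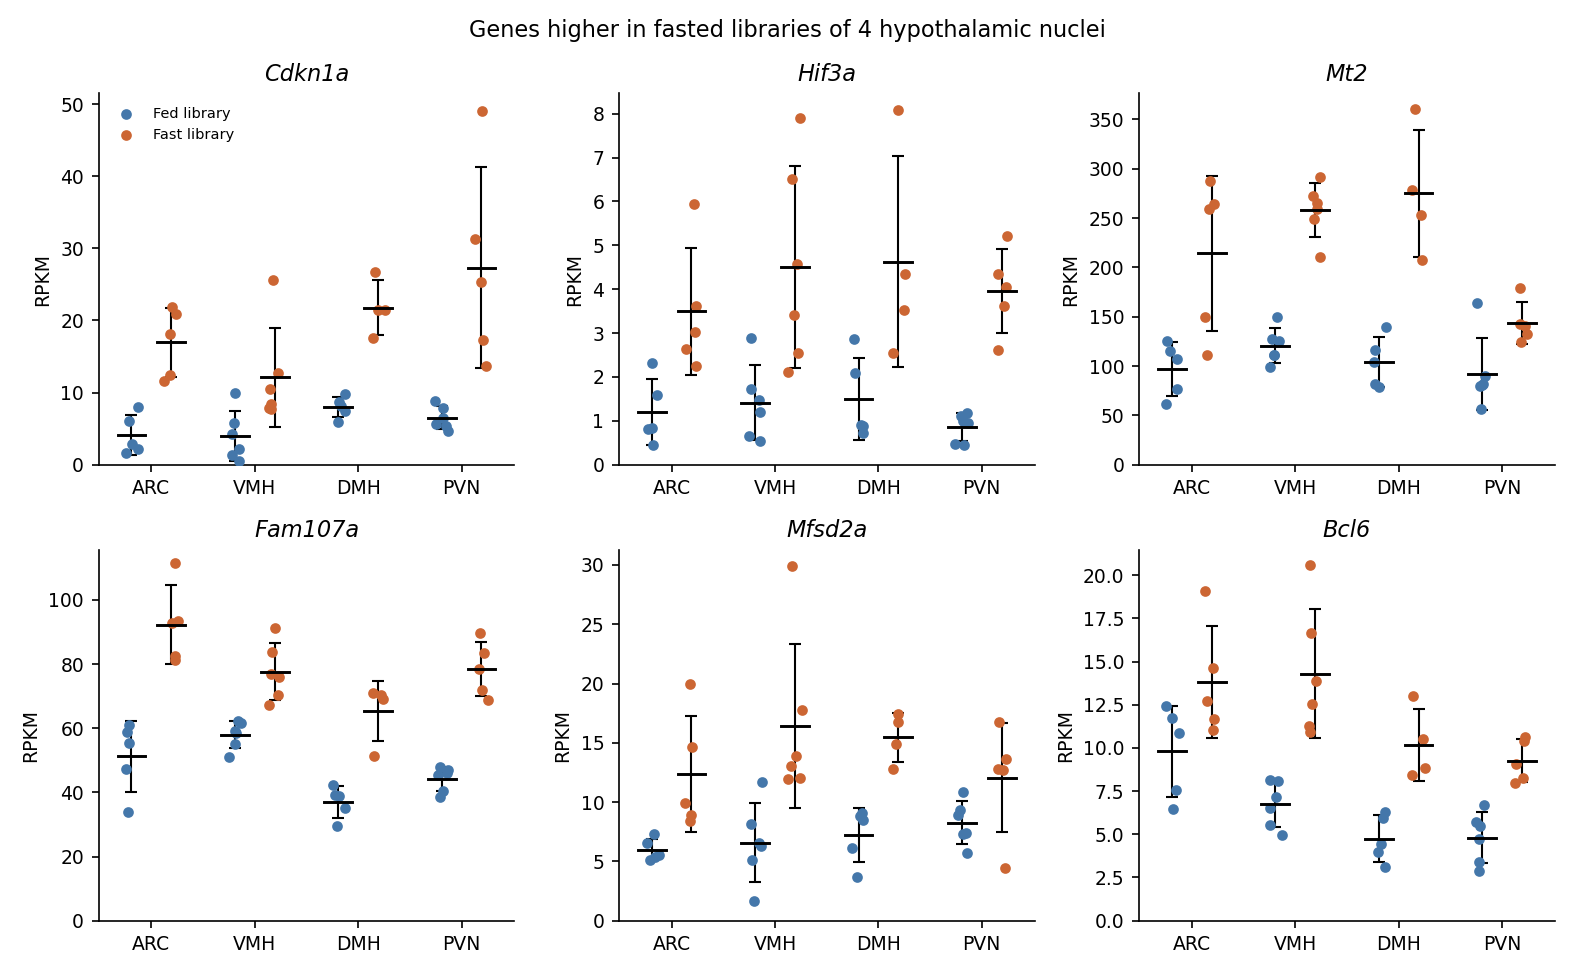
RPKM (y axis) of 6 genes that rose, with a point for each fed (blue) and fasted (orange) library of each nucleus; lines and bars give the mean and SD of 4 to 6 libraries. Fam107a separates the states in every nucleus, whereas Hif3a overlaps in all but the PVN.

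Genes known to be induced by glucocorticoids made up the list with the most increases. Of 30 such genes tested, 14 rose and none fell, beside a background of 0.208% of all genes called as higher. The median change of the list was 0.479, against 0 over all genes, and 29 of the 30 changes were positive. The list was drawn up with earlier results of these data known, so the count is a description. Its summed level was 485 to 920 RPKM in fed and 728 to 1271 RPKM in fasted libraries. Besides the genes above, it holds Bcl6, a transcriptional repressor (0.82 ± 0.0978, adjusted p = 1.84e-06), and Glul, the glutamine synthetase of astrocytes (0.48 ± 0.0538, adjusted p = 5.63e-07). Glul was already abundant, with 225 ± 54.7 RPKM (SD, n = 22) in fed and 312 ± 61.3 RPKM (n = 20) in fasted libraries. Together with Mt2 and Mt1 (fed means 104 and 99.4 RPKM), Glul made up much of the summed level of the list. Fkbp5, a co-chaperone that limits glucocorticoid receptor activity, rose by 0.72 ± 0.171 (adjusted p = 0.0425). Its change was 1.13 in the ARC and 1.30 in the PVN, against VMH and DMH changes of 0.10 and 0.41, and the test that these differ had an unadjusted p of 0.0239, far from the threshold over all genes. Klf9, a hormone-induced transcription factor, and Sdc4, a cell surface proteoglycan, were also called. Several textbook targets were not called, among them Tsc22d3 (0.46 ± 0.129, adjusted p = 0.138) and Sgk1 (0.54 ± 0.155, adjusted p = 0.159).

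The letters of a full glucocorticoid response element, AGAACA and TGTTCT with 3 bases between them, read on both strands, occurred in 3 of 32851 promoter windows. Windows were found for 27 of the 30 genes of the list, for 54 of the genes called as higher and for 83 of those called as lower, some with several starts. A single window of the list held it, that of Sgk1 at chr10:21993640-21993939 on the plus strand, and no window of a called gene did. The shorter half-site AGAACA was present in 20% of the 40 windows of the list and in 10% of the 70 windows of genes called as higher. It was in 15% of the 107 windows of genes called as lower and in 15.6% of the windows of all genes tested. The Sgk1 window is given with the element in capitals, because no other gene of the list had the full letters in these windows; it and the chaperones without values here lie outside the rule by which genes were named and were chosen after their values were seen.
Sgk1: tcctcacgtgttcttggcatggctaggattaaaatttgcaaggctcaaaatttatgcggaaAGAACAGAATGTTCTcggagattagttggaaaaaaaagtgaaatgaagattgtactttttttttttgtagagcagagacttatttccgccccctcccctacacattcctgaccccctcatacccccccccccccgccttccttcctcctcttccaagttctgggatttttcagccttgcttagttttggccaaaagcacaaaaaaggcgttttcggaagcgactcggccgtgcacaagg

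Transporters of lipid and glucose were also among the genes that rose. Of the genes that follow, Mfsd2a and Angptl4 are among the 14 called genes of the glucocorticoid-induced list. Mfsd2a, which carries lysophosphatidylcholine with the fatty acid DHA across brain endothelium, had 1.63, 6.93 and 11.7 RPKM (lowest, median and highest) in fed and 4.42, 13.3 and 29.9 RPKM in fasted libraries. It rose by 0.91 ± 0.155 (adjusted p = 0.00142), and the states separated in every nucleus but the PVN, where 1 fasted library lay below all fed ones. Its change was 0.31 in the first set of libraries and 1.35 and 0.79 in the others. Slc2a1, the glucose transporter GLUT1 of endothelium and astrocytes, rose by 0.57 ± 0.093 (adjusted p = 0.000712), from 31.1 ± 11.4 to 44.8 ± 13.4 RPKM (SD, n = 22 and 20). Its change was 2.77e-05 in the first set of libraries, which holds no fasted DMH library, and 0.70 and 0.68 in the others. Of 28 genes of fatty acid oxidation and ketone use 2 rose and none fell, beside 0.208% of all genes called as higher. These were Angptl4, a secreted inhibitor of lipoprotein lipase (0.76 ± 0.139, adjusted p = 0.00337), and Ucp2, a mitochondrial carrier (0.37 ± 0.0812, adjusted p = 0.0243). Ucp2 had a change of -0.00145 in the ARC, and neither gene is an enzyme of the oxidation pathway. The median change of that list was 0.0184.

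Further increases came from genes of varied function. Hr, a nuclear corepressor, rose by 0.95 ± 0.159 (adjusted p = 0.000927), Fbln5, an extracellular matrix protein, by 0.78 ± 0.137 (adjusted p = 0.00186) and Mertk, a receptor for engulfing dead cells, by 0.69 ± 0.133 (adjusted p = 0.00567). Smox, which oxidises spermine, rose by 0.75 ± 0.165 (adjusted p = 0.0243). In the 3 sets of libraries the change was 0.84, 1.35 and 0.61 for Hr and 1.24, 0.83 and 0.45 for Smox. Rbm3, an RNA-binding protein induced by mild cooling, rose from 7.17 ± 1.97 to 11.8 ± 2.82 RPKM (SD, n = 22 and 20; change 0.65 ± 0.1, adjusted p = 0.000269). The related Cirbp had a change of 0.56 ± 0.176 (adjusted p = 0.236). Gm15334, a gene of unknown function, was called at 0.74 ± 0.174 (adjusted p = 0.0416) but sat at its no-read value in 19 of the 42 libraries, with changes of 1.34, 0.64 and 0.54 in the 3 sets.

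**Figure D3:**
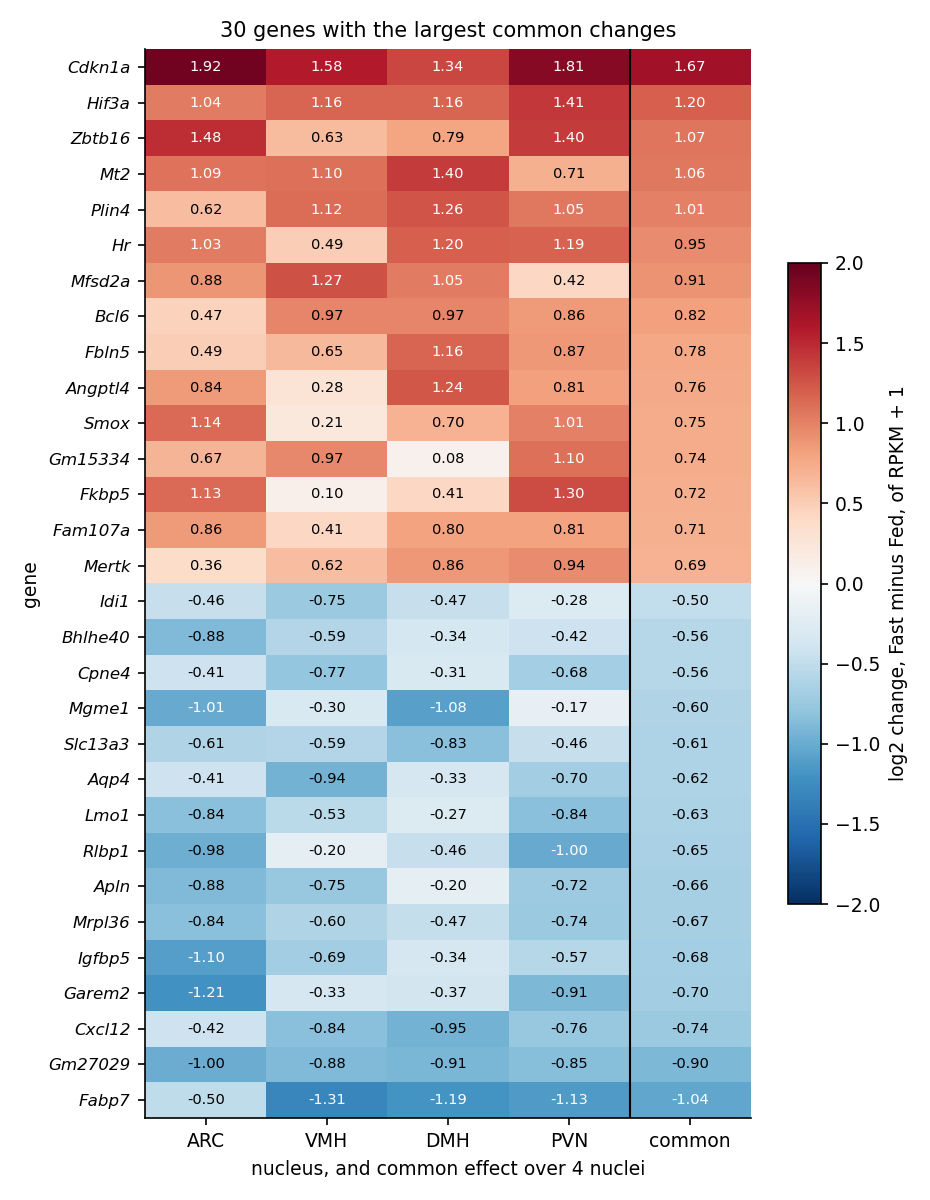
Log2 change (fasted minus fed, of RPKM + 1, colour and number) of the 15 genes with the largest increases and the 15 with the largest decreases among those called, in each nucleus and over the 4 nuclei. Every cell has the sign of the common change by the rule that chose the genes; Fkbp5 ranges from 0.10 in the VMH to 1.30 in the PVN, and Cdkn1a from 1.34 to 1.92.

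The largest decrease was that of Fabp7 (ENSMUSG00000019874, chr10:57784881-57788450, plus strand), the brain fatty acid-binding protein of astrocytes and radial glia. In the DMH its level was 48.7, 54.4, 58.5, 59.9 and 88.3 RPKM in fed and 17, 25.6, 28.6 and 36.6 RPKM in fasted libraries. In the ARC the fed values were 20.3, 49.6, 56, 56 and 60.5 RPKM and the fasted values 22.8, 28.4, 35.6, 35.7 and 39.1 RPKM. The states were separate in the DMH and the VMH, and in the ARC a single low fed library lay below all fasted ones. Over all nuclei the mean was 56.8 ± 19.2 RPKM (SD, n = 22) in fed and 26.5 ± 7.78 RPKM (n = 20) in fasted libraries. That SD includes differences between the nuclei. Fabp7 fell by 1.04 ± 0.146 on the log2 scale (adjusted p = 5.16e-05), with changes of -0.54, -1.55 and -0.86 in the 3 sets of libraries.

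Other genes with large decreases were expressed at lower levels. Cxcl12, a chemokine, had 2.74, 4.28 and 10.9 RPKM (lowest, median and highest) in fed and 0.849, 2.2 and 5.76 RPKM in fasted libraries, and fell by 0.74 ± 0.139 (adjusted p = 0.00404). Igfbp5, a binding protein of insulin-like growth factors, had 9.36, 18.3 and 54.2 RPKM in fed and 3.77, 11.4 and 24.5 RPKM in fasted libraries, and fell by 0.68 ± 0.138 (adjusted p = 0.011). The states of Cxcl12 overlapped in all nuclei but the DMH, and those of Igfbp5 in all. For Cxcl12 the change was -1.37 in the first set of libraries and -0.60 and -0.48 in the others, and for Igfbp5 it was -1.45 in the first set of libraries and -0.46 and -0.51 in the others. Garem2, an adaptor of growth factor signalling, had 0.954, 3.87 and 12.1 RPKM in fed and 0.345, 2.11 and 4.46 RPKM in fasted libraries. Its change of -0.70 ± 0.183 was close to the threshold (adjusted p = 0.0971), and the call was lost in 31 of the 42 fits that left out a library. It was -1.48 in the first set and -0.54 and -0.59 in the others. Gm27029 was called at -0.90 ± 0.217 (adjusted p = 0.0482), with 2.52, 7.72 and 15.8 RPKM in fed and 0.435, 3.87 and 8.45 RPKM in fasted libraries. It shares 86.6% of its 50-base stretches with other genes, most of them with Aarsd1, so its level is uncertain. Its change was -2.53 in the first set of libraries and -0.70 and -0.36 in the others. Mrpl36, a mitochondrial ribosomal protein, had the same form, with -1.71 in the first set, -0.41 and -0.28 in the others and -0.67 ± 0.163 over all (adjusted p = 0.0577).

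Rlbp1, a retinoid-binding protein, fell by 0.65 ± 0.153 (adjusted p = 0.0401), and Apln, the ligand of the apelin receptor, by 0.66 ± 0.144 (adjusted p = 0.0236). The change of Apln was -1.28 in the first set of libraries and -0.66 and -0.39 in the others. Slc13a3, the carrier that takes up dicarboxylates and N-acetylaspartate in astrocytes, fell by 0.61 ± 0.0963 (adjusted p = 0.00033). Its mean went from 3.78 ± 0.477 to 2.17 ± 0.57 RPKM in the ARC (SD, n = 5 and 5) and from 1.2 ± 0.437 to 0.568 ± 0.0645 RPKM in the PVN (n = 6 and 5). Bhlhe40, a repressor of the circadian clock, was the only called gene of 19 clock genes (-0.56 ± 0.101, adjusted p = 0.00263). Of the 19, 7 had an unadjusted p under 0.05, and 0.316% of all genes were called as lower. The transcriptional regulator Lmo1, the calcium sensor Cpne4 and the mitochondrial nuclease Mgme1 fell by 0.63, 0.56 and 0.60, with adjusted p of 0.0191, 0.00806 and 0.0696.

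The water channel of astrocyte endfeet, Aqp4, fell by 0.62 ± 0.103 (adjusted p = 0.000894), so that 2 of 15 astrocyte markers fell, Fabp7 and Aqp4, beside 0.316% of all genes. The other 13 markers were not called. The median change of the 15 was -0.0556, with 6 positive and 9 negative, and 8 of the 15 had an unadjusted p under 0.05, as did 2402 of the 33579 genes tested. These 8 were Fabp7, Aqp4, Sox9 (-0.28), Slc4a4 (-0.13), Slc1a2 (-0.10), Aldoc (0.17), Fgfr3 (0.24) and Agt (0.39). The summed level of the list was 560.5 to 999.6 RPKM in fed and 511 to 833 RPKM in fasted libraries. The part of the number of astrocytes in the changes of Fabp7, Aqp4 and Glul was not tested.

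**Figure D4:**
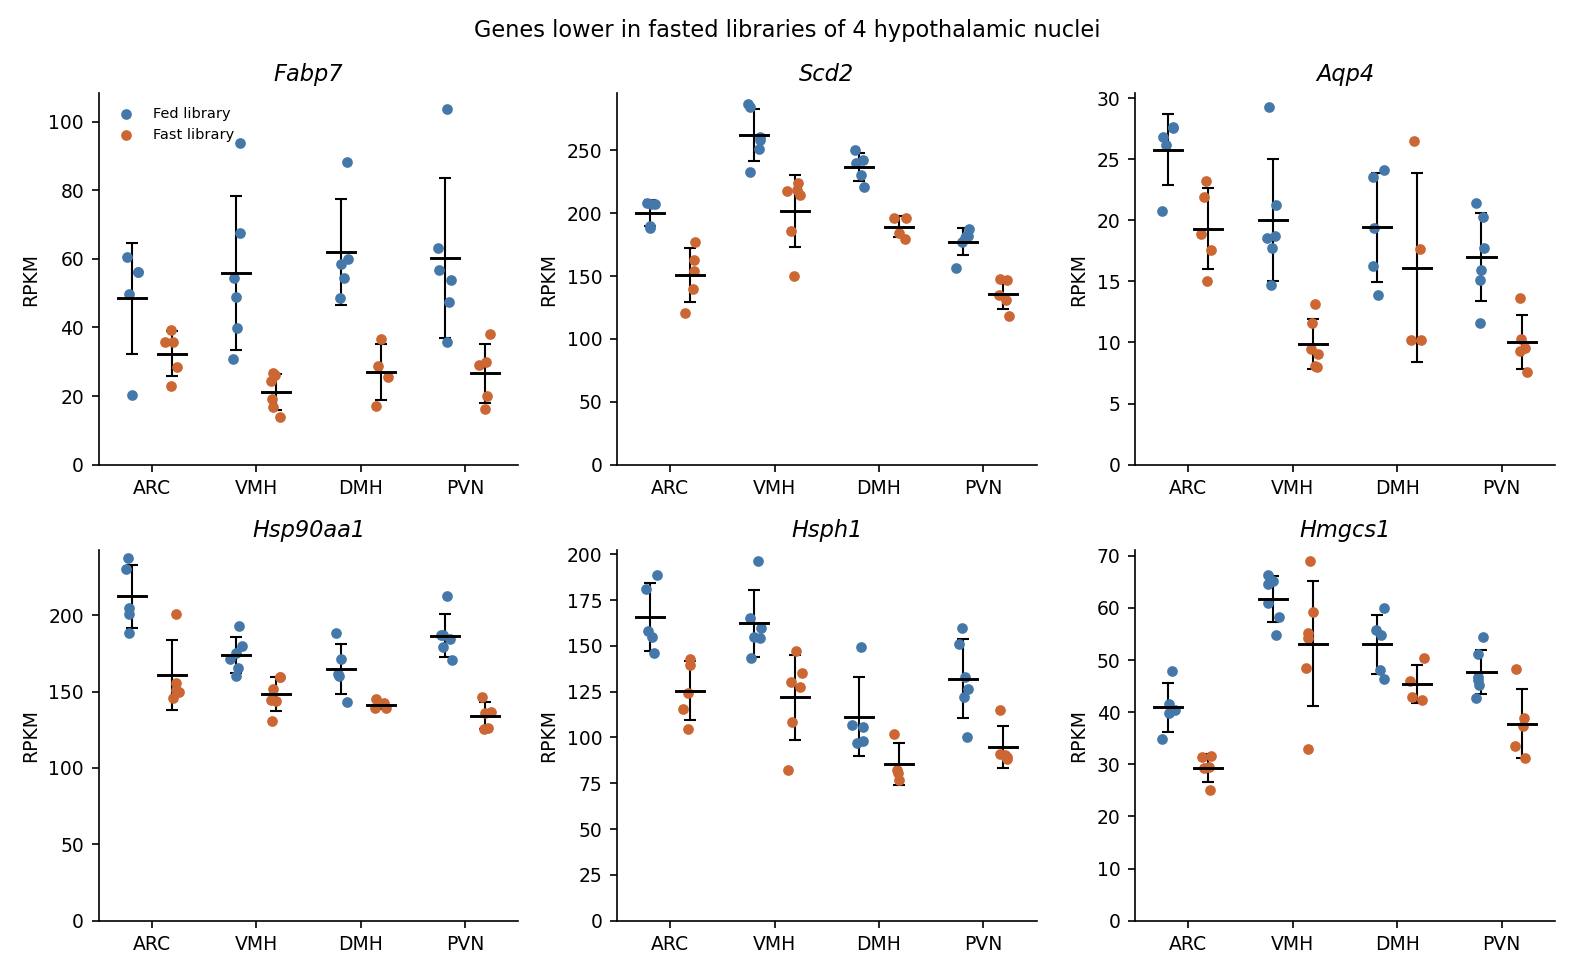
RPKM (y axis) of 6 genes that fell, with a point for each fed (blue) and fasted (orange) library of each nucleus; lines and bars give the mean and SD of 4 to 6 libraries. Scd2 separates the states in every nucleus, and Fabp7 separates them in the VMH and the DMH.

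The genes of lipid synthesis that were called had small decreases. Scd2 (ENSMUSG00000025203, chr19:44293674-44306864, plus strand), the stearoyl-CoA desaturase of brain, was at 188, 190, 207, 207 and 208 RPKM in fed and 121, 140, 154, 163 and 177 RPKM in fasted ARC libraries. Fed and fasted VMH libraries ranged from 232 to 287 and from 150 to 224 RPKM, DMH libraries from 221 to 250 and from 180 to 196 RPKM, and PVN libraries from 156 to 187 and from 118 to 148 RPKM. Fed and fasted libraries did not overlap in any nucleus, and Scd2 fell by 0.38 ± 0.0412 (adjusted p = 5.63e-07). Its paralog Scd1 fell by 0.38 ± 0.0726 (adjusted p = 0.00438). With Fasn, the fatty acid synthase (-0.26 ± 0.0596, adjusted p = 0.033), and Fads1, a desaturase of polyunsaturated fatty acids (-0.33 ± 0.0815, adjusted p = 0.0585), 4 of 19 genes of fatty acid synthesis fell and none rose, beside 0.316% of all genes called as lower. The median change of the list was -0.114. Acaca and Acly, which supply the same pathway, were not called, at 0.01 ± 0.0792 and -0.02 ± 0.078.

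In the pathway of cholesterol, 4 of 26 genes fell and none rose, beside 0.316% of all genes called as lower, with a median change of -0.134 and 21 negative changes. Hmgcs1, the cytosolic HMG-CoA synthase, had a change of -0.32 ± 0.0592 (adjusted p = 0.00423). Idi1 and Msmo1, which act at later steps, fell by 0.50 ± 0.112 and 0.44 ± 0.106 (adjusted p = 0.0286 and 0.0479), and the change of Msmo1 in the 3 sets of libraries was -0.93, -0.45 and -0.17. Sqle, the squalene epoxidase, had a change of -0.10 ± 0.0694 (adjusted p = 0.833). The sterol response letters, ATCAC and CCAC with 1 base between them on both strands, were in 0 of the 21 promoter windows of the list and in 0.234% of all windows.

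Heat shock proteins and co-chaperones, most of them cytosolic, made up the list with the most decreases. It also holds Hspd1 and Hspe1, the chaperonin pair of the mitochondrion. Of 28 tested, 12 fell and none rose, beside 0.316% of all genes called as lower, with a median change of -0.268 and 27 negative changes. Without the mitochondrial pair 11 of 26 fell. The list, too, was drawn up with earlier results known. Hsp90aa1 (ENSMUSG00000021270, chr12:110690605-110702728, minus strand), the inducible HSP90, was at 188, 201, 205, 230 and 237 RPKM in fed and 146, 150, 151, 156 and 201 RPKM in fasted ARC libraries, and the states separated in 2 nuclei. It fell by 0.33 ± 0.0402 (adjusted p = 2.37e-06). It shares 47.5% of its 50-base stretches with other genes, mostly with the processed pseudogene Gm12346. Hsph1, a nucleotide exchange factor of HSP70 with no shared stretch, fell by 0.42 ± 0.063 (adjusted p = 0.000208), with changes between -0.37 and -0.46 in the 4 nuclei. Dnaja1, a co-chaperone of HSP70, fell by 0.32 ± 0.0511 (adjusted p = 0.00055), and Hspa8, the constitutive HSP70, by 0.22 ± 0.0383 (adjusted p = 0.00176). The others called were Ahsa1, Hspa4l, Dnajb4, Hspd1, Hsp90ab1, Chordc1, Stip1 and Fkbp4, all partners or members of the HSP70, HSP90 and HSP60 systems. Hspa1a and Hspa1b, the strongly inducible HSP70 genes, were low and were not called (-0.47 ± 0.2 and -0.20 ± 0.109). The exception in sign was Dnajb5, at 0.39 ± 0.112 (adjusted p = 0.147). Among 26 genes of the unfolded protein response of the endoplasmic reticulum, Hsp90b1 alone was called (-0.17 ± 0.0378, adjusted p = 0.0222). Of these 26, 5 had an unadjusted p under 0.05, and 0.316% of all genes were called as lower.

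Heat shock elements were counted in the promoters because these genes moved together. The letters GAA, TTC and GAA, or TTC, GAA and TTC, each with 2 bases between neighbours and on both strands, were in 5 of 31 windows of the chaperone list (16.1%; 22 of its genes had a window), in 5.61% of the 107 windows of genes called as lower, in 0 of the 70 windows of genes called as higher and in 0.542% of windows of all genes tested. Windows of neighbouring or alternative starts can share bases, and a match is a description. The genes of the list that held the letters were Hsph1, Chordc1, Hspd1 and Hspe1. The windows of the 3 that were called are shown with the letters in capitals, Hsph1 at chr5:149636266-149636565 (minus strand), Chordc1 at chr9:18292017-18292316 (plus strand) and Hspd1 at chr1:55087883-55088182 (minus strand).
Hsph1: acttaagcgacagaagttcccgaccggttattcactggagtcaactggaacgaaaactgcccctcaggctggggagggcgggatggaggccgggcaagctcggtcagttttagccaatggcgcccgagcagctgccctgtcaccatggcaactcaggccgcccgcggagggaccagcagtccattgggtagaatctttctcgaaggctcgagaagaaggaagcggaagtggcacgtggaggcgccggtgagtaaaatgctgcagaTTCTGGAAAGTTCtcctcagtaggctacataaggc
Chordc1: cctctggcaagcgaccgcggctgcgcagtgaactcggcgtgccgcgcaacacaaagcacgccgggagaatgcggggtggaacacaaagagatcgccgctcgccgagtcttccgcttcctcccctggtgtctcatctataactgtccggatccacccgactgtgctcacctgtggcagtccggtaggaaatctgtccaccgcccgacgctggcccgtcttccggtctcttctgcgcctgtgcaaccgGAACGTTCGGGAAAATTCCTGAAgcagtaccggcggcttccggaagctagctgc
Hspd1: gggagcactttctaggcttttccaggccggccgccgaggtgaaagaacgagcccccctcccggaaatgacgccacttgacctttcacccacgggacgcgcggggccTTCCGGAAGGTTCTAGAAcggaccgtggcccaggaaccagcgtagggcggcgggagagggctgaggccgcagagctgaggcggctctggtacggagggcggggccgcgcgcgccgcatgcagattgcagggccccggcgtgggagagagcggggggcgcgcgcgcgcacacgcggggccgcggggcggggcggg

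The neuropeptides and receptors of feeding were not among the genes called. None of 17 genes of the leptin-melanocortin pathway and none of 27 neuropeptide genes was called by limma, beside 0.524% of all genes tested. In each list 6 had an unadjusted p under 0.05, as did 2402 of the 33579 genes tested. The neuropeptide gene Cartpt was called when the PVN was left out, with a change of -0.728 over the other nuclei and -0.0239 in the PVN. Agrp had an ARC change of 1.61 beside -0.13 (VMH), 0.18 (DMH) and -0.16 (PVN), and a common change of 0.34 ± 0.195 (adjusted p = 0.778). Npy had an ARC change of 1.33 beside -0.32 (VMH), 1.02 (DMH) and 0.31 (PVN) (common change 0.53 ± 0.232, adjusted p = 0.611). The change of Lepr, the leptin receptor, was 1.23 in the ARC and -0.08 to 0.30 elsewhere (common change 0.39 ± 0.114, adjusted p = 0.168). The tests that these changes differ between nuclei had unadjusted p of 0.00121 for Agrp, 0.0414 for Npy and 3.46e-05 for Lepr, and none passed the threshold over all genes.

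Lists of other cell types and of general cell functions held few called genes, beside 0.524% of all genes tested. At that share most lists of this size would hold no call, so a lack of calls says little about them. Of all 33579 genes tested, 2402 had an unadjusted p under 0.05. None of the markers of neurons (14), oligodendrocytes (13), oligodendrocyte precursors (8), tanycytes and ependyma (12) or blood (5) was called by limma, with 3, 3, 1, 2 and 1 of them at an unadjusted p under 0.05. Among 13 microglial markers Ctss, a lysosomal protease, fell by 0.29 ± 0.0713 (adjusted p = 0.0599), and among 14 endothelial and mural markers Slc2a1 alone was called. The summed microglial level was 104 to 219 RPKM in fed and 94.6 to 172 RPKM in fasted libraries, and the summed endothelial level 96.7 to 287 and 108 to 287 RPKM. The part of cell numbers in the changes of Ctss and Slc2a1 was not tested. No immediate-early gene (of 20), autophagy and lysosome gene (of 35) or steroid and thyroid hormone receptor (of 13) was called, with 2, 3 and 3 at an unadjusted p under 0.05. A single gene was called in each of the lists of ribosomal proteins (Rpl10a, -0.26 ± 0.0582, adjusted p = 0.0278), proteasome subunits (Psmb5, -0.30 ± 0.0764, adjusted p = 0.0864) and respiratory chain subunits (Ndufs1, -0.25 ± 0.0654, adjusted p = 0.0836). The calls of Psmb5 and Ndufs1 were lost in 23 and 25 of the 42 fits that left out a library. Psmb5 shares 54.1% of its 50-base stretches with other genes, mostly with Gm3375, so its level is uncertain, and its change in the DMH was 0.03. These lists held 85, 39 and 81 genes, and their medians lay between -0.0152 and -0.00355. In the insulin and FoxO list of 34 genes Irs4, an insulin receptor substrate of the hypothalamus, was called (-0.20 ± 0.0495, adjusted p = 0.0638).

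**Figure D5:**
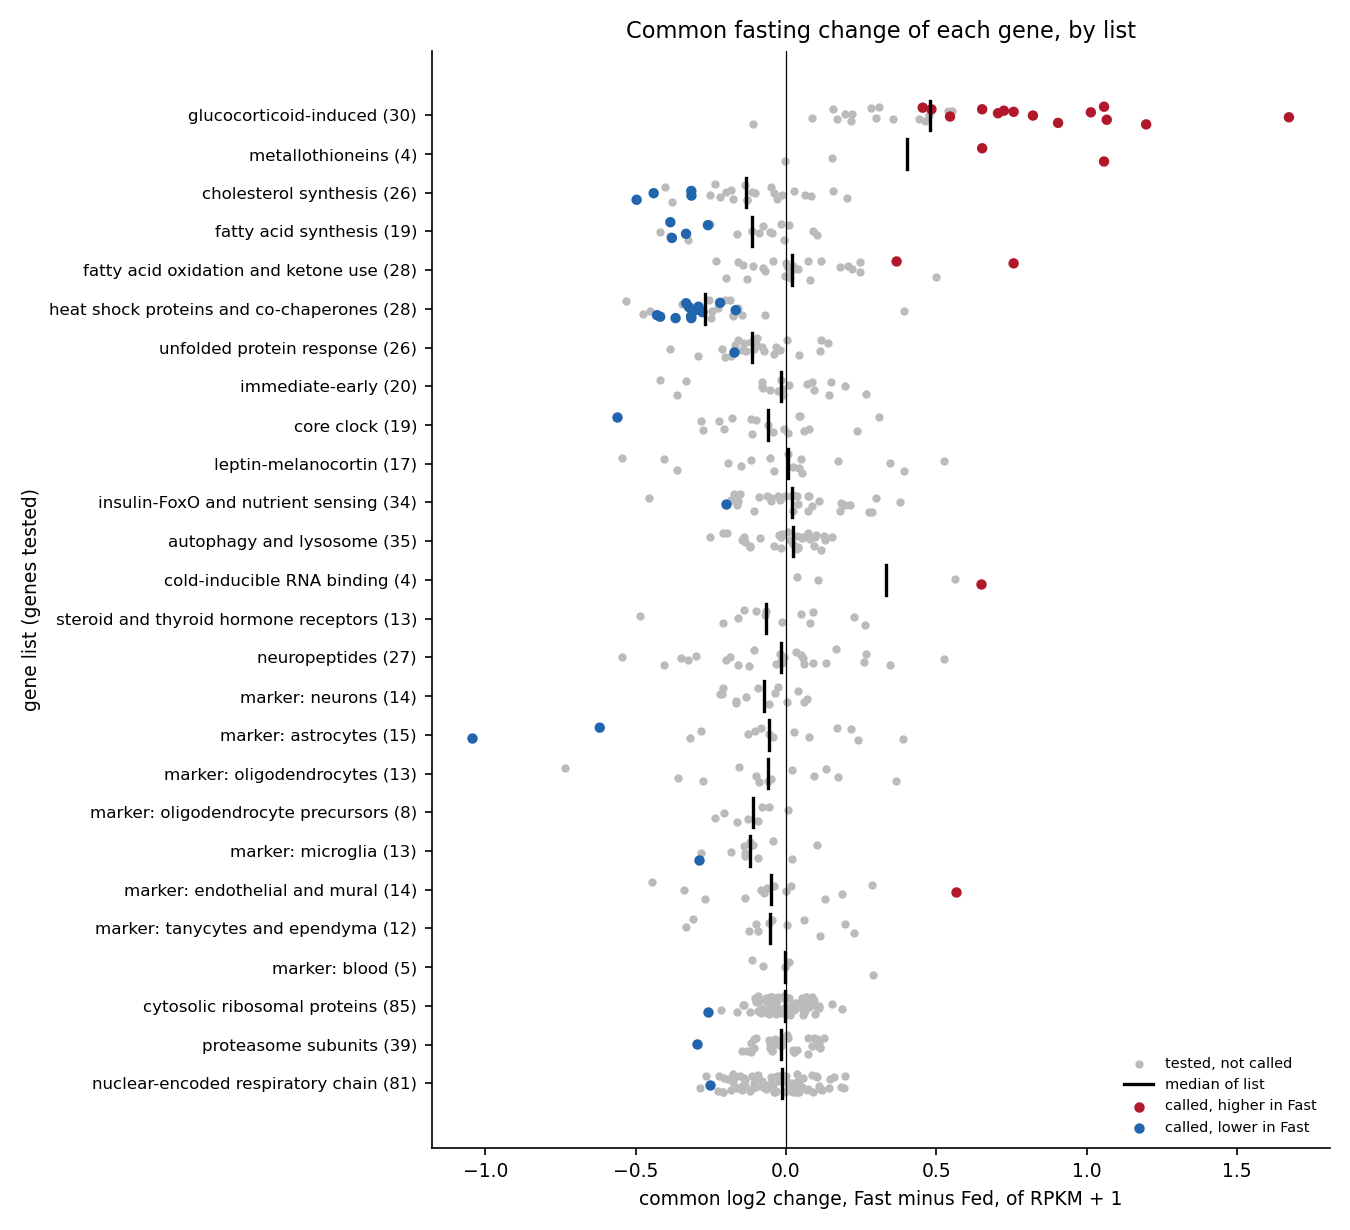
Common log2 change (x axis, fasted minus fed, of RPKM + 1) of every gene tested in each list, with the number of genes tested in parentheses and a black line at the median; red and blue points are genes called as higher and lower. Called genes cluster at the right in the glucocorticoid-induced list (14 of 30) and at the left in the list of heat shock proteins and co-chaperones (12 of 28).

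Whether a response differed between the nuclei was tested for every gene by the interaction of nucleus and fasting. It was called for 2 of 33579 genes (0.00596%), while 1475 had an unadjusted p under 0.05. Of the 176 genes with a common effect, 14 (7.95%) had an unadjusted interaction p under 0.05, beside 4.39% of all genes tested, and 0 were called. The 2 genes were Rgs2, which limits signalling by G proteins, and Fyb2, an adaptor protein, and both had their largest change in the PVN. Rgs2 went from 77.9 ± 16.2 RPKM (SD, n = 6) in fed to 164 ± 12.7 RPKM (n = 5) in fasted PVN, and from 103 ± 11.9 to 96.5 ± 19.8 RPKM (n = 5 and 5) in the ARC. Fyb2 went from 0.531 ± 0.217 to 5.05 ± 2.33 RPKM in the PVN and from 0.89 ± 0.591 to 0.673 ± 0.179 RPKM in the DMH (n = 5 and 4). Their adjusted interaction p was 0.0151 for each, and neither was called for the common effect (adjusted p = 0.141 and 0.181).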

How the data were processed

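The authors deposited RPKM values for 37907 Ensembl genes in 42 libraries of laser-captured nuclei; the RNA was amplified with the NuGEN Ovation system and sequenced single-end, without strand. The submitters' processing notes name CASAVA 1.7, TopHat2 2.0.11, Cufflinks 2.2.1, edgeR, limma and GRCm38. The deposited RPKM hold no 0: the values step by whole reads (tolerance 0.1 reads) above a small added count, which sets a no-read value for each gene, and library sets share these values. Depth was estimated from those steps and covers counting error only. All columns of the table belong to the series (0 of other samples).

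Genes that reached an RPKM of 1 in 4 or more libraries were tested on log2(RPKM + 1) with limma 3.58.1 (R 4.3.3; trended variance, nucleus and state as factors, Benjamini-Hochberg adjustment, threshold 0.1). The offset understates changes of low genes. The interaction was an F test. Tested on simulated data, limma called 83.7% of the 104 genes given a log2 change of 0.5, and 99% of the 96 given a change of 1, out of 33579. False calls numbered 19 (9.45% of the calls). The simulated libraries were independent, without shared mice or library sets, so the simulation does not cover those features of the data. Libraries of 2 nuclei with the same state and replicate number had correlations of deviations from -0.134 to 0.0899 over 58 pairs (median -0.0312). These values did not show that the number marks a mouse. Of the 58 pairs, 38 lay in the same library set. If a brain stayed within a single set, the number cannot mark a mouse in every pair. Over 20 fed and fasted pairs of a nucleus, which cannot share a mouse, the range was -0.112 to 0.0539.

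Groups came from the labels. Genes, lists and tests were chosen with earlier results of these data known. Named were the 15 largest increases and 15 largest decreases among called genes with a symbol and 1 sign in all nuclei, up to 4 called genes of each list by p, and genes called for the interaction. Genes with over 50% exon overlap are named as uncertain. Alternatives varied the offset, filter, scaling, blocks, libraries and nuclei. Promoters came from RefSeq (GRCm38.p6). Hsp90aa1 and Zbtb16 had no promoter entry. The values of 1 called gene of the cholesterol list are not reported here.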

Additional observations from a re-analysis of the deposited data

Results flagged for a closer look

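In groups of 4 to 6 libraries, a single library far from the others was searched for. This was done in 88 groups of the genes given by library and of depth, and 10 were found (11.4%). For normally distributed values chance gives about 1 in 20, but low RPKM values need not be so distributed. Fabp7 was at 20.3 RPKM in ARC-Fed 1 (others 49.6 to 60.5) and at 88.3 RPKM in DMH-Fed 3 (others 48.7 to 59.9). Cxcl12 was at 2.73 RPKM in DMH-Fast 1 (others 1.37 to 1.48) and at 4.74 RPKM in VMH-Fast 5 (others 0.849 to 2.23). The library ARC-Fed 1 also stood out with 12.1 RPKM for Garem2 (others 2.41 to 4.21) and 0.459 RPKM for Plin4 (others 0.175 to 0.245). Mt2 was at 164 RPKM in PVN-Fed 1 (others 56 to 89.6), Zbtb16 at 5.75 RPKM in PVN-Fed 3 (others 1.38 to 2.94) and Cdkn1a at 25.6 RPKM in VMH-Fast 2 (others 7.77 to 12.7). The estimated depth of ARC-Fast 5 was 8.76 M reads (others 3.83 to 4.93).

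The fasting change differed between nuclei for Rgs2 and Fyb2 by the interaction test of limma (adjusted p = 0.0151 for each), with changes of 1.09 and 1.90 in the PVN.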

How the results depend on the processing

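The common effect gave 176 calls. The count was 267 of 17853 genes tested without genes that mostly lay at the no-read value, and 270 of 18082 with protein-coding genes alone. Taking libraries of the same number as 1 mouse gave 63 calls as means (47 shared). As a correlated block it gave 285, with a fitted correlation of -0.0352. Means by order within 2 of the library sets, a setting chosen after seeing the data like the protein-coding one, gave 37 (10 shared). A block of set by state gave 782, with a fitted correlation of -0.0489. Because these correlations were negative, the 285 and 782 calls do not measure the effect of shared mice. Leaving out the ARC, VMH, DMH or PVN gave 82, 76, 113 or 66, and within the sets 0, 8 and 11 genes were called by limma, with 1331 at an unadjusted p under 0.05 in the first. Leaving out each library in turn gave 142 (without VMH-Fast 3) to 202 (without ARC-Fast 5). The replicate number as a block left 138 calls, 137 of them shared.

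The interaction, with 2 calls, gave 1 with an offset of 0.1, 8 with array weights, 2 to 7 without 1 library (7 without DMH-Fast 2) and, with the replicate block, 0 by limma (1237 at an unadjusted p under 0.05). With a mean of at least 5 RPKM, also chosen after seeing the data, 125 genes were called without the ARC and 105 without the PVN. The causes were not tested. Of 3818 values of named genes under the alternatives, 3346 kept direction and side of the threshold, 454 lost the call, 18 gained it and 0 reversed. Most of these values come from the 42 fits without 1 library. Of the 54 named genes, 31 lost the call with means by number and 46 with means by order within 2 sets. Within the second and the third set alone, which hold fewer libraries, 47 and 45 lost it. Of 52 named called genes, 44 were called in all 42 fits without 1 library, and the others were Fads1, Mrpl36, Ctss, Psmb5, Ndufs1, Mgme1, Irs4 and Garem2. Depths from 1.33 to 13.2 M reads limit what can be said of genes near their no-read value.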

Other observations

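The genes that follow lie outside the rule for naming genes and were chosen after their values were seen. Subunits of the CCT chaperonin, which folds actin and tubulin, included called genes. Of 8 subunits 3 fell, beside 0.316% of all genes called as lower, Cct6a (-0.38 ± 0.0806, adjusted p = 0.0192), Cct7 (-0.30 ± 0.0684, adjusted p = 0.0278) and Cct4 (-0.31 ± 0.0803, adjusted p = 0.0971). All 8 changes were negative, with a median of -0.213. Among the called genes outside the marker list, 5 that are known from astrocytes were picked by hand, and 4 of them fell and 1 rose. Glul, the glutamine synthetase of astrocytes, is also outside that list and rose (0.48). The 5 genes therefore do not give the direction of astrocyte genes as a whole. Kcnj10, the potassium channel Kir4.1, went from 67.5 to 50.3 RPKM (-0.42 ± 0.0552, adjusted p = 1.04e-05), and Ncan, a proteoglycan of the matrix, from 35.4 to 25.8 RPKM (-0.48 ± 0.0738, adjusted p = 0.000246). Ednrb, an endothelin receptor, fell by 0.43 ± 0.0938 (adjusted p = 0.0222) and Grm3, a glutamate receptor, by 0.51 ± 0.135 (adjusted p = 0.0984), although the ARC change of Grm3 was 0.01. Etnppl, which breaks down phosphoethanolamine, rose from 15.3 to 24.3 RPKM (0.66 ± 0.103, adjusted p = 0.00033).

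RNA-binding proteins, a splicing kinase and a nuclear RNA were also among the calls. Hnrnpc fell by 0.42 ± 0.0644 (adjusted p = 0.000246) and Qk by 0.34 ± 0.0532 (adjusted p = 0.000275), while the splicing kinase Clk1 rose by 0.24 ± 0.0435 (adjusted p = 0.00218) and the nuclear RNA Malat1 by 0.18 ± 0.0345 (adjusted p = 0.00394). Among mitochondrial proteins the citrate synthase Cs and the prohibitin Phb fell by 0.33 ± 0.0759 and 0.34 ± 0.0772 (adjusted p = 0.0312 and 0.0299). Among transporters, the cystine carrier Slc7a11 and the zinc carrier Slc39a10 fell by 0.38 ± 0.0809 and 0.35 ± 0.0637 (adjusted p = 0.0191 and 0.00335), and Tfrc, the transferrin receptor, rose by 0.35 ± 0.0881 (adjusted p = 0.0674).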
